A study of Mus musculus with 6 samples.

Results

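Granzyme B (Gzmb), the granule membrane protein NKG7 (Nkg7), the receptor Klrb1c, the kinase Lck and the CD3 delta chain (Cd3d) are genes of cytotoxic lymphocytes and T cells, and they were followed here in sorted mouse blood stem cells. These 5 genes, of 14986 in the table, were chosen by symbol after the difference between the groups was known in these same libraries, so their own levels are given as a description, with no test. The libraries hold polyA RNA of long-term haematopoietic stem cells (LT-HSC), the rare marrow cells from which all blood lineages descend, 3 with the genotype label wild type and 3 with the label Zcchc8 KO. ZCCHC8 holds together the nuclear exosome targeting complex, which passes short-lived nuclear RNAs to the RNA exosome, and the question is what its loss does to the RNA of these cells. All groups shared the preparation: crushed leg and hip bones, red cell lysis, depletion of lineage-positive cells, a sort of 1500 cells and amplification of the cDNA. The strain, age and sex of the mice, the allele and what drives its loss, the sort gate, and whether replicates came from separate animals are not stated in the labels. The p-values therefore measure only how far these samples spread, and that spread may be technical.

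Levels are in FPKM, fragments per kilobase of exon, scaled to library size, which allows levels of different genes to be compared per length. The reads behind these values came to 18059319 to 18909209 per wild-type library and 18963361 to 25709661 per KO library. Zcchc8 itself stood at 8.93, 5.24 and 5.16 FPKM in the libraries labelled wild type and at 10.4, 5.54 and 5.92 FPKM in those labelled KO, so its level does not check the labels. A sum over all exons cannot show the loss of single exons, and higher and lower in what follows refer to the KO label. The 15 LT-HSC markers were all in the table and summed to 530 to 585 FPKM under the wild-type label and to 434 to 494 FPKM under the KO label. None of them passed the test over all genes described below, by limma or by voom on recovered reads, and 6 of the 15 had an unadjusted limma p under 0.05, all lower in KO, where 9.20% of all tested genes reached that p.

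Cytotoxic T cells and natural killer (NK) cells kill through secretory granules. Granzyme B is the serine protease that these granules deliver and that starts cell death in the target, and NKG7 sits in the granule membrane and takes part in granule release. Klrb1c is a C-type lectin-like receptor that marks NK cells in some inbred strains. Lck, a kinase of the Src family, starts T cell receptor signalling by phosphorylating the CD3 chains, of which Cd3d encodes delta. Stem and progenitor cells are known to carry low levels of transcripts of several blood lineages, and mast cells are another known source of granzyme B.

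The DNA just upstream of the start of 3 of the genes is shown first, because it is where the factors that switch on lymphoid genes could bind. Each sequence is the 250 bases before the RefSeq transcript start on build GRCm38.p6, read 5′ to 3′ on the gene's own strand. The windows are those with no annotated exon in them, and capitals mark matches to 6 short motifs of transcription factors, searched on both strands. They lie at chr14:56262335-56262584 on the minus strand for Gzmb, chr9:44981536-44981785 on the plus strand for Cd3d and chr4:129573642-129573891 on the minus strand for the upstream start of Lck.
Gzmb: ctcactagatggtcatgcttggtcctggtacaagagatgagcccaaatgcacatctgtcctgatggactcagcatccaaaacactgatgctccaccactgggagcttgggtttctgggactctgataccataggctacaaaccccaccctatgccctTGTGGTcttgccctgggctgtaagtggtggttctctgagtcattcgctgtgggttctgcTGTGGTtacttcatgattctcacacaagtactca
Cd3d: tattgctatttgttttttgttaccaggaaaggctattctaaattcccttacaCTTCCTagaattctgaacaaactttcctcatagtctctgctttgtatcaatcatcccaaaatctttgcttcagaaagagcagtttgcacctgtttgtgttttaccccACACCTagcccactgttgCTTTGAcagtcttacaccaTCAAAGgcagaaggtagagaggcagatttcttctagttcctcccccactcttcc
Lck: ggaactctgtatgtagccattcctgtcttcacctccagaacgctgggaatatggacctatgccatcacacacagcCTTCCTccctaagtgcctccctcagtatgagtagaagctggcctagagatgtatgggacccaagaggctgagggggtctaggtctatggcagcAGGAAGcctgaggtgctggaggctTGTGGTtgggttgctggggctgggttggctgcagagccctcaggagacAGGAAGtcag
In the Gzmb window the RUNX letters stood on the plus strand at 93 to 88 and at 34 to 29 bases before the start, and no other motif of the 6 was found. The Cd3d window held the TCF/LEF letters at 73 to 68 and, on the other strand, at 54 to 49 bases before the start. It also held the T-box letters at 91 to 86 and the ETS letters at 198 to 193 bases, both on the minus strand. The Lck window held ETS letters at 3 places, the nearest at 10 to 5 bases before the start, and RUNX letters at 58 to 53. Over the 6 windows of the 5 genes, Lck having 2 starts, the RUNX letters were in 4, the ETS letters in 5, the T-box letters in 2 and the TCF/LEF letters in 1, and the GATA and CRE letters in 0. The background was 32851 RefSeq promoters of the same length. The RUNX motif was searched as TGTGGT and was found in 14.0% of them. For ETS factors the letters AGGAAG were searched, and 29.5% held them. The T-box motif, written AGGTGT, was in 11.8%. For TCF and LEF factors the search used CTTTGA, which 13.8% of promoters held. GATA factors were represented by AGATAA, in 9.99%, and the cyclic AMP response element (CRE) by TGACGT, in 6.47%. A match describes the letters and is not evidence of binding, and the windows do not share a single motif arrangement. The G and C content was 50.8% for Gzmb, 41.2% for Cd3d and 56.4% for Lck, where the median promoter had 52.4%.

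Gzmb (ENSMUSG00000015437.5; GRCm38 chromosome 14, 56258838 to 56262260, minus strand) separated the groups with reads in every library. Wild-type libraries 1 to 3 gave 8.98, 6.55 and 8.69 FPKM, and KO libraries 1 to 3 gave 31.0, 73.4 and 40.3 FPKM. All KO values lay above all wild-type values, and the lowest of them was 3.45 times the highest wild-type one. The means were 8.07 ± 1.33 and 48.2 ± 22.3 FPKM (SD, n = 3), a ratio of 5.97, and the difference in log2(FPKM + 1) was 2.36 ± 0.31 (SE). KO libraries differed from each other far more than wild-type ones, with a coefficient of variation of 46.3% against 16.5%. The 3 KO values rest on 1143, 1999 and 1205 reads, and their 95% exact Poisson intervals, 29.2 to 32.8, 70.2 to 76.7 and 38.1 to 42.6 FPKM, did not overlap. These intervals, like the floors below, cover counting error only, since amplified cDNA without molecular identifiers repeats molecules. KO library 2 held the top value, and without it the log2 difference was 2.01 ± 0.26 (SE). Within the table Gzmb stood above 56.4% to 63.7% of genes in wild-type libraries and above 85.5% to 93.6% in KO libraries.

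Nkg7 (ENSMUSG00000004612.9; chromosome 7, 43437073 to 43438249, plus strand) was the most abundant of the 5 in every library. It measured 203, 228 and 174 FPKM in the wild-type libraries, which places it above 97.5% to 98.0% of genes there. The KO libraries gave 308, 306 and 289 FPKM, all above the wild-type range, with the lowest at 1.27 times the highest wild-type value. The means, 201 ± 27.0 and 300.8 ± 10.3 FPKM (SD, n = 3), stood in a ratio of 1.49, with a log2 difference of 0.58 ± 0.11 (SE). Spread between KO libraries was small, a coefficient of variation of 3.41%, against 13.4% in wild type. Of the granule genes, Nkg7, at a high level in both groups, differed by a small amount that was even over libraries, and Gzmb by a large and uneven one. As the libraries are bulk samples, more cells holding a transcript and more RNA per cell cannot be told apart for any of these genes.

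Klrb1c (ENSMUSG00000030325.16; chromosome 6, 128778485 to 128789215, minus strand), the NK receptor, was low and did not separate the groups. The wild-type libraries gave 1.20, 1.38 and 3.41 FPKM, and the KO libraries 1.44, 0.160 and 2.14 FPKM. The means were 1.998 ± 1.23 and 1.25 ± 1.005 FPKM (SD, n = 3), with a log2 difference of -0.46 ± 0.48 (SE), which was -0.04 without KO library 2, -0.76 without KO library 3 and -0.14 without wild-type library 3. KO library 2, which held the highest Gzmb value, held the lowest Klrb1c value, from 9 reads. Of its exonic bases, 13.9% are shared with the predicted gene Gm44511 on the same strand, and reads there cannot be assigned to either.

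Lck (ENSMUSG00000000409.14; chromosome 4, 129548344 to 129573641, minus strand) was present in every library. It measured 6.33, 3.45 and 12.0 FPKM in wild type, a range of 3.49 times, and 11.6, 9.11 and 13.7 FPKM in KO. Wild-type library 3 lay inside the KO range, and the other wild-type libraries lay below it. The means were 7.28 ± 4.37 and 11.5 ± 2.29 FPKM (SD, n = 3), a ratio of 1.58, with a log2 difference of 0.71 ± 0.39 (SE). That difference was 0.33 without wild-type library 2 and 1.11 without wild-type library 3. The microRNA gene Mir8119 lies in its exons and takes 0.854% of their bases.

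Cd3d (ENSMUSG00000032094.8; chromosome 9, 44981786 to 44987339, plus strand), the T cell receptor subunit, was detected in 1 of the 3 wild-type libraries and in all KO libraries. The wild-type values were 1.34, 0 and 0 FPKM, from 44, 0 and 0 reads, and the KO values were 2.68, 3.34 and 5.37 FPKM, from 125, 115 and 203 reads. A count of 0 allows up to 3 reads, which is 0.0903 FPKM in wild-type library 2 and 0.0874 FPKM in library 3. All KO values exceeded the single detected wild-type value, the lowest of them 1.996 times. The means were 0.447 ± 0.775 and 3.80 ± 1.40 FPKM (SD, n = 3), a ratio of 8.49, and the log2(FPKM + 1) difference was 1.81 ± 0.45 (SE). That scale understates low genes, and with 0.1 FPKM added in place of 1 the log2 difference was 3.94.

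**Figure D1:**
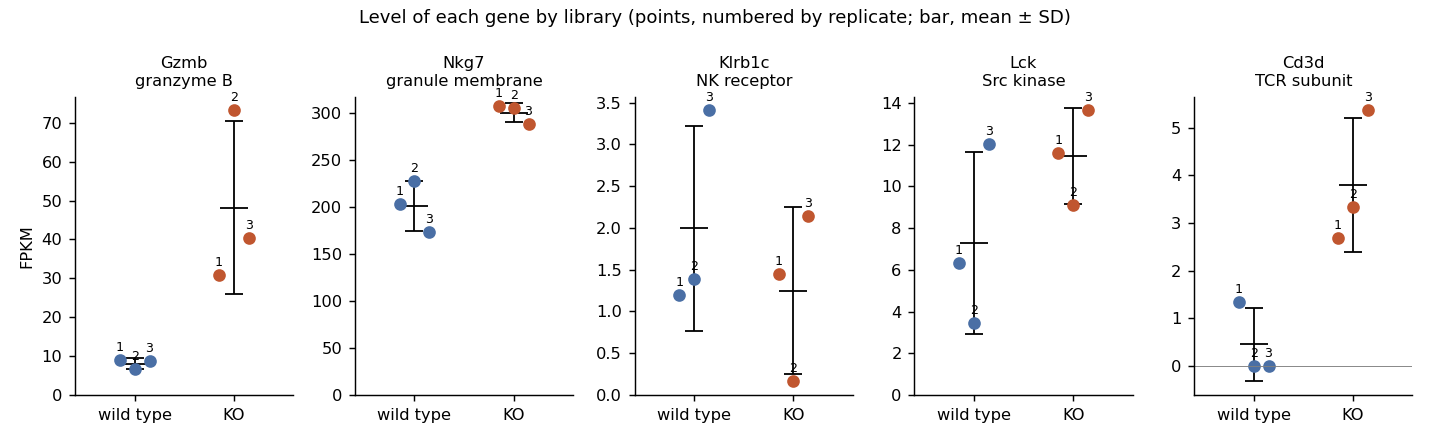
Level of each of the 5 genes in FPKM (vertical axes, one scale per gene, starting near 0) in the 3 wild-type (blue) and 3 KO (orange) libraries; points carry the replicate number and bars show the mean ± SD. The KO points of Gzmb, Nkg7 and Cd3d lie above all wild-type points, and those of Klrb1c and Lck overlap them.

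In order of mean FPKM the wild-type libraries gave Nkg7, Gzmb, Lck, Klrb1c and Cd3d. Nkg7 was 24.95 times Gzmb, while Gzmb and Lck overlapped over libraries (a ratio of means of 1.11), as did Klrb1c and Cd3d. The lowest Lck value, 3.45 FPKM, lay just above the highest Klrb1c value, 3.41 FPKM. In the KO libraries the order was Nkg7, Gzmb, Lck, Cd3d and Klrb1c, and no neighbours in it overlapped. There Nkg7 was 6.24 times Gzmb, Gzmb was 4.20 times Lck, Lck was 3.02 times Cd3d and Cd3d was 3.04 times Klrb1c. The libraries did not rank alike for the 5 genes: the highest KO value was in library 1 for Nkg7, in library 2 for Gzmb and in library 3 for Lck, Cd3d and Klrb1c.

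The difference between groups was fitted by limma for every gene that averaged 1 FPKM or more over the libraries, on log2(FPKM + 1), and all 5 genes passed that filter. Over the 11837 genes tested, 27 (0.228%) passed a Benjamini-Hochberg adjusted p of 0.05 in limma, 21 higher and 6 lower in KO, and among the 5 genes Gzmb did. An unadjusted limma p under 0.05 was reached by 1089 genes (9.20%). All KO libraries lay above all wild-type libraries for 8.24% of tested genes and for 3 of the 5, Gzmb, Nkg7 and Cd3d. All KO libraries lay below for 6.99% of tested genes and for 0 of the 5. The median log2 difference was 0.71 over the 5 genes and 0.00 over all tested genes. The 5 were picked with this contrast in view, so nothing is read from these counts, which are no test of the genes. The count of 1 was also not stable: among the 16 alternative settings it was 0 in 7, namely leaving out wild-type library 1, 2 or 3 or KO library 3, limma without a variance trend, the replicate block, and voom on recovered reads. In the other 9 it was Gzmb alone.

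**Figure D2:**
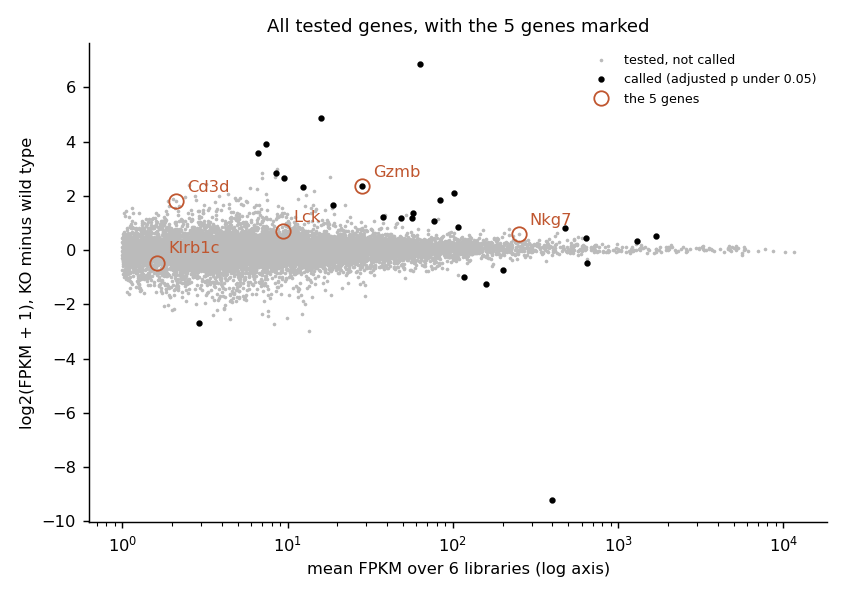
Difference in log2(FPKM + 1), KO minus wild type (vertical axis), against mean FPKM over the 6 libraries (horizontal log axis) for the 11837 tested genes; black points passed an adjusted p of 0.05 and open circles mark the 5 genes. Gzmb is the one circle on a black point, at 2.36, and Klrb1c is the one circle below 0.

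Genes that work with the 5 were followed through 13 lists of known function, in which 104 of 167 symbols other than the 5 are in the table used here and 82 were tested. None of the 82 passed the adjusted p in limma, in which 27 genes overall passed, and none passed by voom on recovered reads. An unadjusted limma p under 0.05 was reached by 11 of them (13.4%), 4 higher and 7 lower, where all tested genes gave 9.20%, and by 11 with voom. By value 40 were higher and 42 lower in KO, with a median log2 difference of -0.03. Gzmb, Nkg7, Lck and Cd3d were higher by value and Klrb1c lower, beside related genes divided about evenly between the directions. The 5 were picked with their directions known, so setting them beside the lists is no test.

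Of the granule proteases and their activators, Gzmb had 3 tested partners. None of the 3 had an unadjusted limma p under 0.05, which 9.20% of all tested genes had. Gzmm, granzyme M, measured 1.99 ± 0.904 FPKM in the wild-type group and 1.89 ± 1.09 FPKM in the KO group (SD, n = 3). Ctsc, the cathepsin that cuts progranzymes to their active form, measured 22.6 ± 3.28 and 24.9 ± 1.21 FPKM. Ctsw, a cathepsin of cytotoxic cells, measured 7.01 ± 2.32 and 9.21 ± 6.13 FPKM. The perforin gene Prf1 and the other granzyme genes of the list were not analysed here.

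Of the 7 other tested granule genes listed beside Nkg7, 5 were higher and 2 lower by value. Srgn, the serglycin core protein on which granzymes are packed, was at 587 ± 29.9 FPKM in the wild-type libraries and 621 ± 8.87 FPKM in KO, a level above that of Nkg7. Cst7, cystatin F, which restrains granule cathepsins, measured 16.5 ± 2.65 and 25.1 ± 2.57 FPKM, a ratio of 1.52 with groups that did not overlap (limma adjusted p = 0.385). Ccl5, a chemokine stored by cytotoxic T cells, measured 6.06 ± 1.29 and 11.3 ± 3.61 FPKM, also without overlap (limma adjusted p = 0.473). Tnfsf10, of the same list, had no overlap in the other direction, at 9.77 ± 1.73 and 6.25 ± 1.10 FPKM (limma adjusted p = 0.550). Over all tested genes, the KO libraries all lay above for 8.24% and all below for 6.99%. Among the serpin inhibitors, Serpinb9, which blocks granzyme B inside cells, measured 13.4 ± 6.69 and 8.58 ± 3.96 FPKM.

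Of the 7 tested genes of granule release, 5 were lower by value in KO. Unc13d, the Munc13-4 protein that primes granules for fusion, measured 34.1 ± 3.36 FPKM in the wild-type libraries and 22.0 ± 2.14 FPKM in KO (limma adjusted p = 0.278). Stxbp2, which holds the syntaxin of the same step, measured 32.8 ± 4.38 and 22.0 ± 4.50 FPKM (limma adjusted p = 0.418). Both had groups that did not overlap, and all KO libraries lay below all wild-type libraries for 6.99% of all tested genes. Their direction was the opposite of that of Gzmb and Nkg7. As Gzmb and Nkg7 were picked with their differences known, this contrast is no test.

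Around Klrb1c, 8 of 25 other listed NK receptor genes are in the table used here and 3 passed the filter. Its paralogs Klrb1a and Klrb1b, with means of 0.503 and 0.151 FPKM in the wild-type libraries and 0.126 and 0.0274 FPKM in KO, were too low to test. Among the adaptors that pass on signals from NK receptors, Tyrobp (DAP12) measured 9.05, 33.8 and 27.2 FPKM in the wild-type libraries and 55.9, 56.8 and 40.2 FPKM in KO, a ratio of means of 2.18 with no overlap (limma adjusted p = 0.379). Without wild-type library 1 its log2 difference was 0.71, against 1.26 with it. Hcst (DAP10) measured 18.3 ± 3.51 and 22.9 ± 5.88 FPKM, and Fcer1g 54.1 ± 8.74 and 47.4 ± 10.2 FPKM. Tyrobp and Fcer1g are also used by myeloid cells.

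Around Cd3d, 2 of 11 other listed genes of the T cell receptor complex are in the table used here, and neither passed the filter. Cd247, the zeta chain, measured 1.21 ± 1.03 FPKM in the wild-type libraries and 0.462 ± 0.490 FPKM in KO, and Trat1 0.0421 ± 0.0457 and 0.103 ± 0.0449 FPKM. By value Cd247 was lower and Trat1 higher in KO, both at low levels with groups that overlapped. Whether the complex followed Cd3d was not tested. The remaining CD3 chains and the receptor constant regions were not analysed here. Of the coreceptor list, Cd4 measured 0.778 ± 1.05 and 0.312 ± 0.491 FPKM, and Thy1, a surface protein of T cells and some stem cells, 0.980 ± 0.120 and 1.87 ± 1.14 FPKM. Cd27, a costimulatory receptor, measured 104 ± 7.62 and 86.0 ± 5.10 FPKM (limma adjusted p = 0.524).

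Around Lck, 13 genes of signalling next to the receptor were tested and none had an unadjusted limma p under 0.05, which 9.20% of all tested genes had. Fyn, the other Src family kinase of T cells, measured 4.46 ± 2.30 FPKM in the wild-type libraries and 4.97 ± 0.552 FPKM in KO, and Zap70, the kinase that binds CD3 chains once Lck has phosphorylated them, 1.47 ± 1.28 and 1.32 ± 1.88 FPKM. Lat, the adaptor downstream of Zap70, measured 26.0 ± 8.75 and 19.96 ± 8.11 FPKM. Of the 13 regulators of Lck, all tested, Sla, an adaptor that lowers receptor signalling, was the one with an unadjusted p under 0.05, at 7.42 ± 0.663 and 12.3 ± 2.19 FPKM (limma adjusted p = 0.454). Ptprc (CD45), the phosphatase that activates Lck, measured 3.31 ± 0.335 and 4.52 ± 0.371 FPKM, and Csk, the kinase that inhibits it, 16.1 ± 2.88 and 17.2 ± 2.38 FPKM. The Src family kinase Lyn measured 23.7 ± 4.64 and 19.5 ± 6.32 FPKM, above Lck in mean level in both groups.

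Of 10 tested transcription factors of T and NK cells, 9 were lower and 1 higher by value in KO, with a median log2 difference of -0.26. Nfil3, which NK cells need for their development, measured 3.17, 3.89 and 3.60 FPKM in the wild-type libraries and 0, 0.208 and 1.49 FPKM in KO (limma adjusted p = 0.223). Zbtb16 (PLZF), a factor of innate-like lymphocytes, measured 2.82 ± 1.36 and 0.564 ± 0.418 FPKM (limma adjusted p = 0.367). Runx3, a factor of the family whose motif letters stood in the Gzmb window, measured 18.9 ± 6.37 and 15.96 ± 3.64 FPKM, and Runx1 8.69 ± 1.25 and 8.26 ± 0.559 FPKM. Of 12 tested cytokine receptor and signalling genes, 7 were higher and 5 lower by value, and the groups did not overlap for 2 in each direction. Among all tested genes the KO libraries all lay above for 8.24% and all below for 6.99%. Il2rb, the chain that receives interleukins for NK cells, measured 2.01 ± 1.12 and 0.460 ± 0.539 FPKM (limma adjusted p = 0.510). Il21r measured 31.7 ± 0.638 and 21.6 ± 5.30 FPKM (limma adjusted p = 0.452), with a log2 difference of -0.56 that was -0.37 without KO library 2. In the other direction Il2rg, the common gamma chain, measured 33.6 ± 1.02 and 39.7 ± 3.59 FPKM, and Stat4, which signals for interleukins in NK and T cells, 3.30 ± 0.0713 and 4.50 ± 0.812 FPKM.

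**Figure D3:**
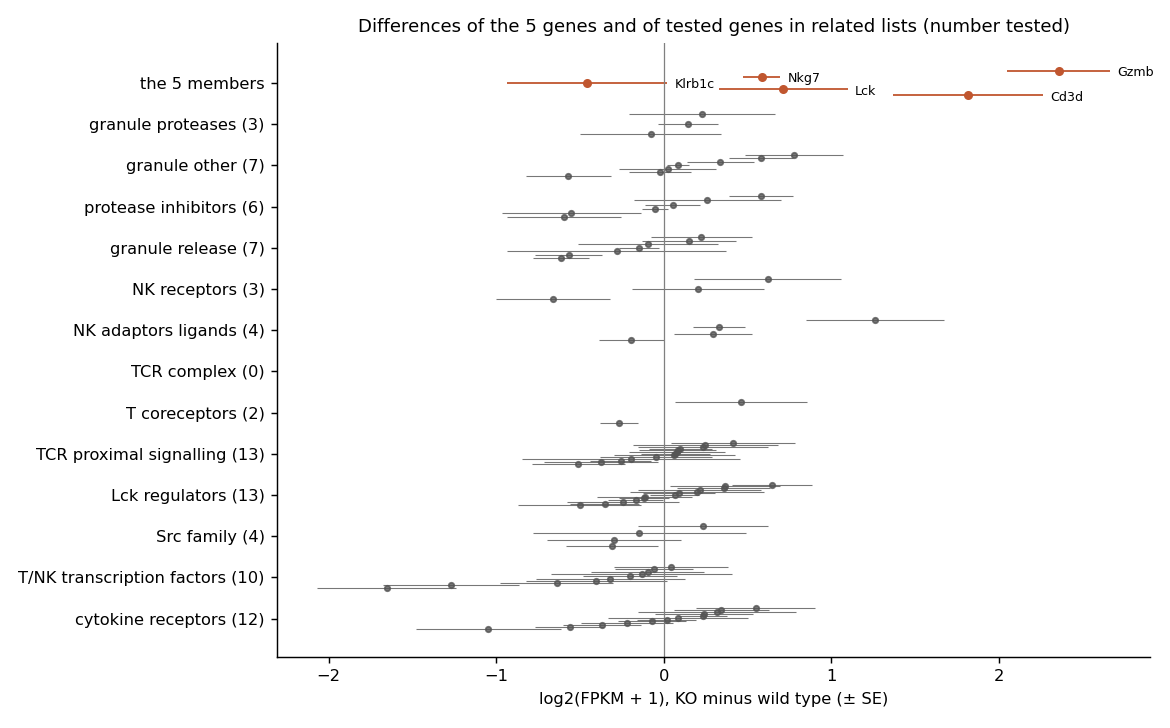
Difference in log2(FPKM + 1), KO minus wild type, ± SE (horizontal axis) for the 5 genes (orange) and for each tested gene of 13 related lists (grey), with the number tested in brackets. Gzmb and Cd3d lie to the right of every grey point, Klrb1c, Nkg7 and Lck lie among them, and 9 of 10 transcription factors lie left of 0. The 5 genes were picked with this contrast known, so their place beside the grey points is no test.

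The genes lying beside the 5 on their chromosomes were described in the same way. As the 5 were picked with their differences known, a comparison of neighbours with them is no test. Within 250 kb of the 5 genes, 47 genes are in the table used here and 36 were tested. None passed the adjusted p in limma or by voom on recovered reads, and 4 (11.1%, against 9.20% of all tested genes) had an unadjusted limma p under 0.05, with log2 differences from -1.63 to 1.46 and a median of 0.06. Near Gzmb, in the cluster of granzyme, chymase and cathepsin G genes, Ctsg measured 57.6 ± 18.0 FPKM in the wild-type libraries and 63.2 ± 5.11 FPKM in KO, and the basophil protease gene Mcpt8 3.39 ± 1.40 and 2.19 ± 1.81 FPKM. Near Nkg7, Cldnd2, which starts 3.71 kb downstream of the Nkg7 start, had a log2 difference of 0.40 ± 0.39 (SE), and Etfb one of 0.16 ± 0.16. Siglecf, a receptor of eosinophils, which starts 85.7 kb upstream of Nkg7, measured 1.79 ± 1.59 and 6.12 ± 3.28 FPKM (limma adjusted p = 0.492). Near Lck, Zbtb8a was the lowest in difference, at 9.49 ± 2.56 and 2.75 ± 1.96 FPKM, and Dcdc2b the highest, at 0.491 ± 0.528 and 3.20 ± 2.001 FPKM (limma adjusted p = 0.293 and 0.367). The histone deacetylase gene Hdac1, nearer to Lck than Zbtb8a, measured 19.0 ± 0.794 and 17.8 ± 3.67 FPKM. Near Cd3d, Ube4a had a log2 difference of -0.13 ± 0.35 (SE) and Kmt2a one of -0.22 ± 0.26.

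**Figure D4:**
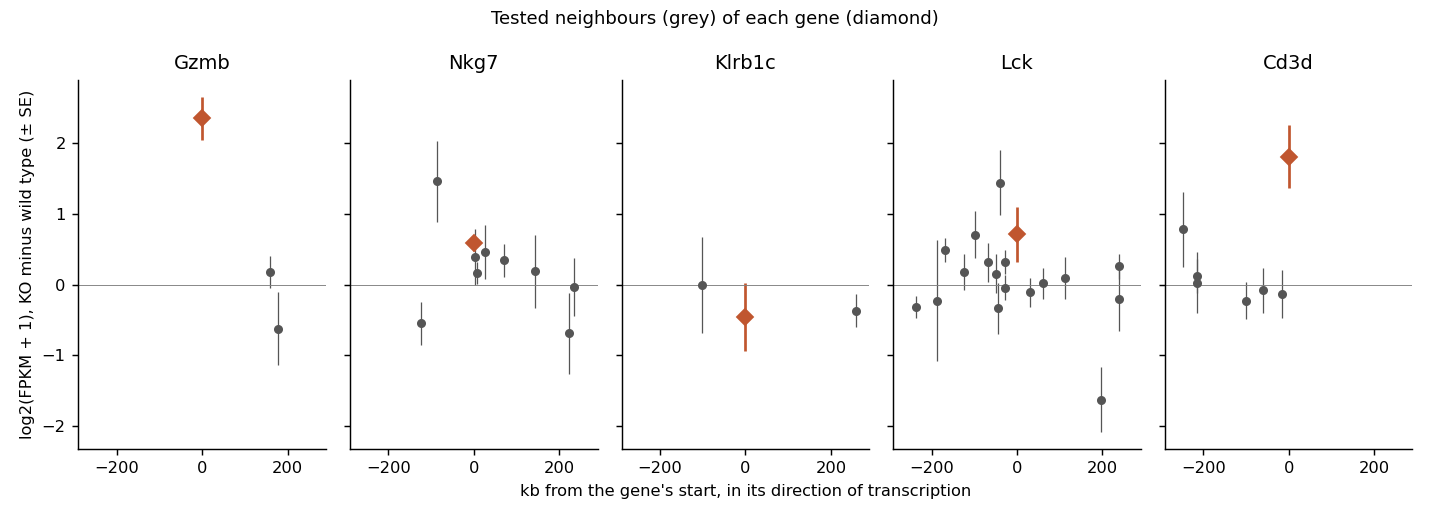
Difference in log2(FPKM + 1), KO minus wild type, ± SE (vertical axis) for each gene (orange diamond) and its tested neighbours (grey) by the distance between starts in kb, in the gene's direction of transcription. The tested neighbours of Gzmb lie at -0.62 to 0.18 and those of Cd3d at -0.22 to 0.78.

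Summed T cell and NK cell markers overlapped between the groups, and the mast cell sum did so with Gata2 in it and not without it. With the 5 genes left out, 6 T cell markers of the 19 listed are in the table used here, and their summed level was 22.6 to 37.7 FPKM in the wild-type libraries and 21.1 to 34.995 FPKM in KO. Lat made up most of these sums, which without it, a choice made after seeing the data as for the other sums below, were 3.31 to 7.08 and 3.54 to 8.39 FPKM. Cd4 and Zap70 were at 0 in at least 1 library. The 5 NK and innate lymphoid markers present, of 13 listed, summed to 11.6 to 29.5 FPKM and 12.9 to 14.4 FPKM, with Tbx21 and Il2rb at 0 in at least 1 library. Without Gata3 the remaining 4 summed to 3.28 to 8.41 and 1.82 to 6.24 FPKM. The 8 mast cell and basophil markers present, of 14 listed, summed to 105 to 129 FPKM and 122 to 139 FPKM. Most of this was Gata2, a factor also on the list of LT-HSC markers, at 79.9 to 103 FPKM over the 6 libraries. Without Gata2 the other 7 summed to 16.2 to 33.5 FPKM in the wild-type group and 36.02 to 41.6 FPKM in the KO group. All KO libraries were higher in this sum through Fcer1a, the alpha chain of the IgE receptor, with means of 9.63 and 27.6 FPKM. Of the 6 tested markers of the list, 3 were higher and 3 lower by value, and Fcer1a alone had groups that did not overlap. Of all tested genes, 8.24% had all KO libraries above all wild-type libraries and 6.99% had them below. The part of mast cells or basophils in the Gzmb level was not tested. By library Fcer1a, named after its values were seen, measured 14.0, 10.5 and 4.40 FPKM in the wild-type group and 26.0, 32.7 and 24.3 FPKM in KO (limma adjusted p = 0.184). Cpa3, the mast cell carboxypeptidase, was lower by value, at 5.96 ± 1.44 and 4.17 ± 1.63 FPKM. So were Mcpt8 and Mitf, the latter at 2.35 ± 1.71 and 0.519 ± 0.384 FPKM.

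Markers of other cell types did differ between the same libraries in which Gzmb, Nkg7 and Cd3d were higher. The 5 eosinophil markers present, of 9 listed, summed to 1.05 to 3.25 FPKM in the wild-type libraries and 170 to 211 FPKM in KO, with 4 of the 5 at 0 in at least 1 library. The 9 erythroid markers present, of 10, summed to 117 to 156 and 438 to 473 FPKM, and all 13 neutrophil markers to 3097 to 3247 and 3943 to 4368 FPKM. S100a9 made up the largest share of the neutrophil sum, at 1321 to 1426 and 1887 to 2101 FPKM. Among the 13 an unadjusted limma p under 0.05 was reached by 5 higher and by 4 lower in KO (Prtn3, Mpo, Mmp9 and Retnlg). Of all tested genes 9.20% reached that p. The 8 lymphoid progenitor markers present, of 10, summed to 161 to 167 and 213 to 223 FPKM. The 10 B cell markers present, of 11, gave opposite directions with and without Igkc, the immunoglobulin kappa constant region. Their sum was 816 to 928 FPKM in wild type, of which Igkc was 746 to 866 FPKM, and 108 to 126 FPKM in KO, where Igkc was at 0 to 1.35 FPKM. Without Igkc the other 9 summed to 61.8 to 77.4 and 107.7 to 124.8 FPKM, higher in KO. Of the 7 tested, Vpreb1, Vpreb3, Igll1, Ighm and Cd79a, most of them genes of early B cells, were higher in all KO libraries with an unadjusted limma p under 0.05, without passing the adjusted p. Over all tested genes 8.24% were higher in all KO libraries and 9.20% had an unadjusted p under 0.05. Igkc passed the adjusted p in limma, lower in KO. So did, higher in KO, 4 of 5 tested eosinophil, 4 of 8 erythroid, 2 of 5 lymphoid progenitor and 1 of 13 neutrophil markers. Among all tested genes 0.228% passed it. The marker lists were chosen with earlier results known, so these counts are no test. The part of these other cell types in the levels of the 5 genes was not tested.

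**Figure D5:**
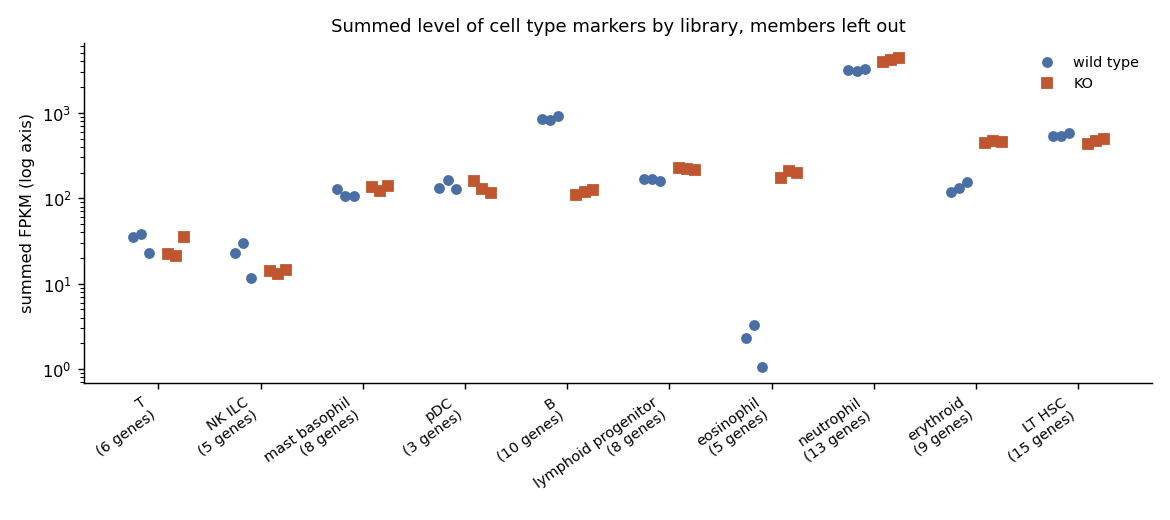
Summed FPKM (vertical log axis) of the markers of 10 cell types in each wild-type (blue circles) and KO (orange squares) library, with the 5 genes left out and the number of summed genes in brackets. The T, NK, mast cell and plasmacytoid dendritic cell sums overlap between groups, the mast cell one through Gata2, and the eosinophil, erythroid and B cell sums do not, the B cell one being lower in KO through Igkc.

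For each of the 5, the genes most like it over the 6 libraries were found by Pearson's r of log2(FPKM + 1) among genes that averaged 5 FPKM or more. Symbols of the Gm and Rik kinds count in the totals but were left out of the genes named. With 6 points that share their library, depth and group, many genes reach a high r, so the values describe these libraries and carry no p. Gzmb was followed most closely by Rragc (r = 0.993), Prdx4 (0.990) and E2f4 (0.988), and 132 of 7413 genes had an r of at least 0.9. For Nkg7 the closest were Mtres1 (r = 0.987), Selp (0.985) and Cnot7 (0.983), with 140 genes at 0.9 or more. Lck was most like Uhrf1 (r = 0.995), Ube2n (0.981) and Eapp (0.977), with 72 such genes. The closest to Cd3d were Cep70 (r = 0.990), Smarca4 (0.985) and Ate1 (0.982), with 112 such genes, and those to Klrb1c were Cd59a (r = 0.980), Dalrd3 (0.978) and Prkrip1 (0.972), with 45. Among the 5 genes themselves r ran from -0.58 between Klrb1c and Nkg7 to 0.87 between Cd3d and Gzmb, and Lck and Nkg7 gave 0.27. None of the closest genes named belongs to the lists of cytotoxic, T cell or NK cell function. With 3 genes taken per member out of 7413 or 7414, and 82 list genes tested, such an absence was likely beforehand, and nothing is read from it.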

How the data were processed

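Bone marrow LT-HSC RNA was measured in 3 wild-type and 3 KO libraries, grouped and numbered by their titles. The authors deposited 1 table of 14986 gene symbols in FPKM. Per the submitters' processing notes, fastp, Bowtie2 and featureCounts were used on mm10, with no versions. Not given in the sources used here are the step to FPKM, strand use and the treatment of multiple matches. Bowtie2 aligns without gaps for introns, so reads across exon junctions can be lost, which bears most on genes with many short exons, such as Lck.

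From the deposited FPKM, log2(FPKM + 1) was computed for the 11837 genes averaging 1 FPKM or more and tested with limma 3.58.1 in R 4.3.3 (lmFit, then eBayes with the trend option, two-sided, Benjamini-Hochberg over all tested genes, threshold 0.05). Symbols matched GENCODE M21 (GRCm38) for 14671 genes (97.9%). FPKM times exon length gave whole reads within 0.05 for 98.0% of values below 100 reads. From these reads came the depth per library, the 95% exact Poisson intervals and the floors of 3 reads. On a gene of 1 kb, 1 read is worth 0.0389 to 0.0554 FPKM. Replicates of a group differed beyond counting error, the chi-square of their reads being 57.3 to 82.1 per gene.

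The members, gene lists and marker lists were chosen with earlier results of these data known. Besides the 5 genes, the rule for naming took from each list the 3 genes of highest mean and the 2 of smallest p, all neighbours within 250 kb and the 3 genes of highest r, of which some are left out; a few list genes (Serpinb9, Hcst, Fyn, Zap70, Lyn, Cd4, Runx1, Ptprc and Csk among them) are named for their role. Stat4, Tnfsf10 and the marker genes were named after their values were seen. Promoters were taken from RefSeq on GRCm38.p6, which held all 5 genes. The test was tried on 10 simulated tables of 11837 genes with 200 changed: it recovered 20.2% of those changed by 1 and 61.9% of those changed by 2 on the log2 scale, 4.31% of its calls were false, and 0 had the wrong sign. The alternatives were other choices of pseudocount, filter, scaling, variance model, pairing, unit and libraries. Plots used matplotlib 3.10.9 (Python 3.11.15).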

Additional observations from a re-analysis of the deposited data

How the results depend on the processing

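The count of genes passing an adjusted p of 0.05 in limma, 27 as reported, was 8 without a variance trend and 8 with voom on recovered reads. With the replicate number as a block (replicate block) it was 11, and leaving out 1 library at a time it ran from 11 to 19. The labels do not say whether equal replicate numbers pair the libraries. Deviations of same-numbered libraries correlated at 0.0235, 0.0071 and 0.0037, and those of differently numbered ones at -0.0157 to 0.0088. With 3 libraries a group these values do not settle whether the libraries are paired. In the other 7 settings the count stayed between 19 and 32. The count of genes of the related lists that passed was 0 in all 16 settings. No log2 difference of the 5 genes changed sign. Over the settings in which each was tested, it ran from 2.01 to 2.62 for Gzmb, 0.48 to 0.68 for Nkg7, -1.05 to -0.04 for Klrb1c, 0.33 to 1.11 for Lck and 1.59 to 5.76 for Cd3d. The high Cd3d values, 2.43 and 3.94 with 0.5 and 0.1 FPKM added and 5.76 with voom, come from the 0 reads of wild-type libraries 2 and 3, whose log depends on what is added. Scaling moved the median of all genes to between -0.03 and 0.00. Without the most abundant marker, left out after seeing the data, KO minus wild type of the marker sums changed sign for B cells (47.4 from -747.3 FPKM, without Igkc), T cells (0.376 from -5.62, without Lat) and plasmacytoid dendritic cells (0.522 from -7.81, without Bst2), and kept its sign for the other 7. With a mean of at least 5 FPKM required, Klrb1c and Cd3d were not tested. Depth limits Cd3d and Klrb1c most, at 0 to 203 reads a library.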
